A study of Mus musculus with 6 samples.

Results

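The genes described are 10 members of the bone morphogenetic protein (BMP) pathway, taken by symbol from the 32285 genes of the count matrices. They are the ligands Bmp4, Bmp5, Bmp6 and Bmp7, the receptors Bmpr1a, Bmpr1b and Bmpr2, and the secreted antagonists or modulators Nog, Chrd and Bmper. Raw UMIs (unique molecular identifiers, which count captured RNA molecules) were followed in 6 snRNA-seq libraries, 3 from LPA-injected and 3 from vehicle-injected C57BL/6 S-56 mouse brains, to compare each gene between the 2 injections within each cell type. Lysophosphatidic acid (LPA) is a bioactive lipid of blood, injected here into the lateral ventricle of neonates to model post-hemorrhagic hydrocephalus, and the vehicle was a solution of bovine serum albumin. The labels name no genotype. Brains were taken without olfactory bulbs and cerebellum about a week after the injection, and nuclei negative for NeuN, a protein of neuronal nuclei, were sorted. Each library is named by group and replicate number as in the labels, which do not say whether replicates came from separate litters, so a p-value measures only the spread between these samples.

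BMP ligands are secreted dimers of the TGF-β superfamily that bring type I receptors (among them Bmpr1a and Bmpr1b) together with type II receptors (among them Bmpr2). The type I receptor then phosphorylates SMAD1, SMAD5 and SMAD9, which enter the nucleus with SMAD4 and turn on genes such as the Id family and the inhibitory Smad6 and Smad7. Noggin (Nog) and chordin (Chrd) bind ligands and keep them from receptors, and Bmper can act as antagonist or agonist. In the brain, BMPs from the meninges and choroid plexus act on the tissue near them, and BMP signalling favors astrocytes over oligodendrocytes.

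After filtering, 57443 nuclei remained, with 7579 to 11745 per library and median depths of 3732 to 4578 UMIs. Nuclei were clustered without the 10 genes, the other pathway genes and the cell type markers, and 14 cell types had at least 10 nuclei in every library. Names follow marker lists, so each name means nuclei that are like that type by these markers, and 13518 nuclei stayed unnamed. All 14 meningeal markers were highest in the meningeal clusters. Of the 8 markers of committed oligodendrocyte precursors (COP), 3 were highest in the COP cluster and 7 were among its 2 highest cell types. Oligodendrocyte precursors (OPC) and newly formed oligodendrocytes are the stages before and after COP. Despite the sort, 11567 nuclei carried neuronal markers. By Xist and Y-linked UMIs, LPA replicate 1 and vehicle replicates 1 and 3 were male and the other libraries female. Of the distinct barcodes, 0.648% occurred in more than 1 library. A level below is given in counts scaled to 1000000 UMIs of the same cell type and library (CPM), as mean ± SD over 3 libraries, is not scaled for gene length, and is compared between cell types or groups for 1 gene at a time.

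In vehicle libraries, meningeal cells led for 3 of the 4 ligands and COP for Bmp4. Bmp6, a ligand also known from liver endothelium for its part in iron balance, was highest in meningeal cells, the fibroblast-like cells of the brain's coverings, at 2194 ± 249 CPM. It followed in choroid plexus epithelium (422 ± 29.7), the tissue that makes cerebrospinal fluid, in ependymal cells of the ventricle wall (254 ± 30.2) and in endothelial cells (124 ± 6.12), without overlap between neighbours in this order. Endothelial cells and macrophages (80.6 ± 52.5) overlapped, and the other types had at most 27.2. Bmp6 lies on chromosome 13 (GRCm38, chr13:38345107-38500302, forward strand), and Txndc5 overlaps it on the other strand.

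Bmp4, a ligand that opposes oligodendrocyte formation when added to precursors, was highest in COP at 357 ± 48.5 CPM. Newly formed oligodendrocytes (99.5 ± 16.0) and meningeal cells (95.004 ± 9.13) came next and overlapped, and OPC, the stage before COP, had only 15.1 ± 4.58. Myelinating oligodendrocytes, the last stage of the lineage, had 2.43 ± 0.256. Within newly formed oligodendrocytes, cluster 45, with Tmem108 and Enpp6 among its leading genes, held 349 CPM over all libraries against 377 in COP. Bmp4 lies at chr14:46383520-46390669 on the reverse strand.

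Bmp5 was shared by meningeal cells (179 ± 8.04) and pericytes (156 ± 34.8), the mural cells of capillaries, whose ranges overlapped, and was 24.3 ± 1.92 in choroid plexus epithelium. Bmp5 lies at chr9:75775364-75900310 (forward strand) and Bmp7 at chr2:172868012-172940321 (reverse strand). Bmp7, a ligand of the same subgroup as Bmp5 and Bmp6, was highest in meningeal cells (214 ± 18.2). Choroid plexus epithelium (86.6 ± 23.2) and OPC (65.1 ± 9.17) overlapped behind it.

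The receptor genes ranged from broad to strongest in 1 cell type. Bmpr1a was broad, from 36.9 ± 18.2 in endothelial cells to 266 ± 20.3 in meningeal cells, with astrocytes (243 ± 6.29), choroid plexus epithelium (222 ± 33.6) and pericytes (207 ± 17.7) overlapping in turn. Bmpr1b was highest in astrocytes, at 547 ± 15.6 CPM against 110 ± 89.7 in macrophages, which rest on 19 UMIs, and 52.1 ± 14.1 in choroid plexus epithelium. Bmpr2, the type II receptor, was found in all types and highest in endothelial cells (606 ± 34.9), above macrophages (314 ± 19.8). Bmpr1a lies at chr14:34410734-34503341 (reverse strand) and Bmpr2 at chr1:59763400-59879014 (forward strand).

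Among the antagonists, Nog had few UMIs in every cell type. Its highest level was 1.84 ± 0.917 in astrocytes, with 25 UMIs in the 3 vehicle libraries, and meningeal cells held 1 UMI there. Chrd was highest in meningeal cells (23.0 ± 4.91), OPC (15.0 ± 4.14) and neurons (13.8 ± 1.86), which overlapped. The genes Nog (1695 bases) and Chrd (9258 bases) are short beside Bmper (262125 bases). The part of gene length in their counts was not tested, so few UMIs do not show that an antagonist was missing. Bmper was highest in neuroblasts on average (147 ± 116), where the vehicle libraries ranged from 59.5 to 278 on 25 UMIs in all, and next in meningeal cells (88.7 ± 5.22) and OPC (87.0 ± 19.0). Nog lies at chr11:89300638-89302332 (reverse strand), Chrd at chr16:20733127-20742384 and Bmper at chr9:23223076-23485200 (both forward strand).

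**Figure D1:**
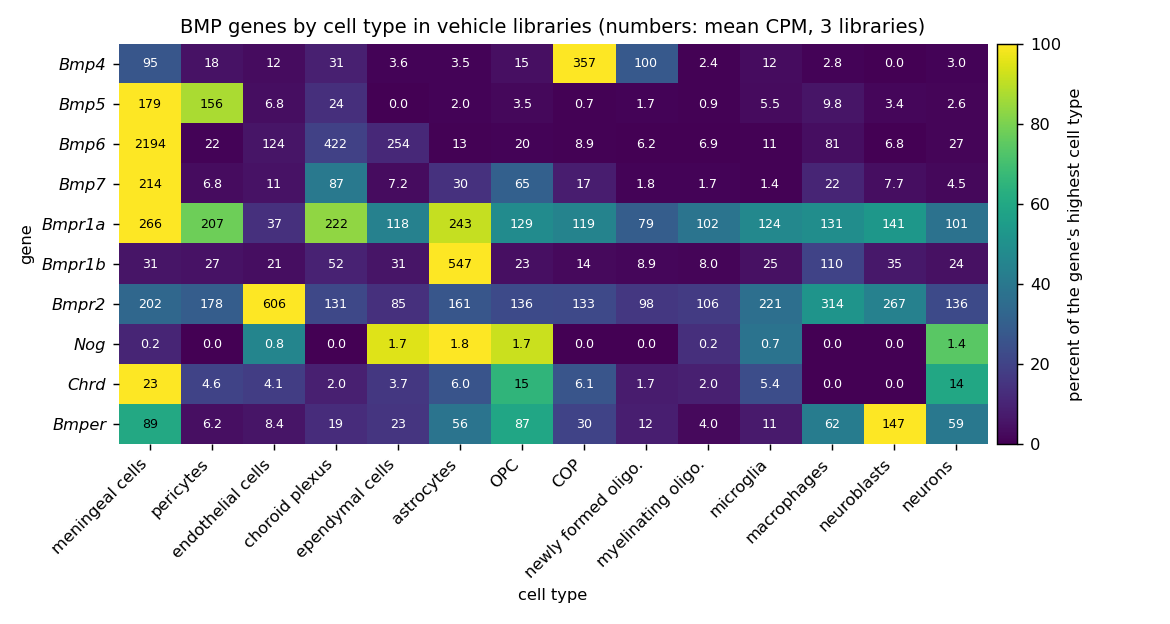
Level of each gene (rows) in each of 14 cell types (columns) in vehicle libraries. Numbers are mean CPM over 3 libraries, and the color is the percent of the gene's highest cell type. Bmp6 peaks in meningeal cells at 2194, Bmp4 in COP at 357, Bmpr1b in astrocytes at 547 and Bmpr2 in endothelial cells at 606.

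When all nuclei of a library were summed, 3 of the 10 genes differed between the groups. Bmp6 and Bmp5 were lower and Bmpr1b was higher with LPA. In bulk sums of this kind, fewer cells of a type and less RNA per cell cannot be told apart. Bmp6 stood at 99.4, 114 and 104 CPM in LPA replicates 1 to 3 and at 196, 182 and 204 in vehicle replicates 1 to 3. The groups did not overlap, as was so for 26.1% of all genes tested in whole libraries, and the log2 fold-change was -0.87 (SE 0.063, adjusted p = 0.00041, edgeR quasi-likelihood test). Bmp5 stood at 11.3, 14.5 and 13.8 with LPA and 21.6, 25.1 and 24.0 with vehicle. Each LPA library was again below each vehicle library, with a log2 fold-change of -0.83 (SE 0.10, adjusted p = 0.0038). Bmpr1b stood at 151, 155 and 138 with LPA against 88.3, 109.6 and 97.6 with vehicle, a log2 fold-change of 0.59 (SE 0.083, adjusted p = 0.0064). Of all genes tested in whole libraries, 5.62% passed the same limits (adjusted p below 0.05, log2 fold-change no smaller than 0.25 either way). The other 7 genes had log2 fold-changes from -0.19 (Bmp7) to 0.29 (Nog), the latter on 128 LPA and 109 vehicle UMIs, and none passed. Without LPA replicate 2, the library with the highest Bmp7 level, Bmp7 also passed, at -0.38.

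The share of meningeal nuclei was lower in the same libraries. The paper names difficulty in removing the meninges of hydrocephalic brains as a possible reason for its lower vascular share. This was not tested here. Meningeal cells made up between 3.29% and 4.56% of nuclei with LPA and between 7.86% and 9.06% with vehicle, a difference of means of -4.83 percentage points (two-sided exact permutation test, p = 0.1, the smallest that 3 against 3 libraries allow). They held 61.1% of all Bmp6 UMIs in vehicle libraries and 51.9% in LPA libraries, and 41.5% and 34.6% of all Bmp5 UMIs. Unnamed nuclei held 29.3% (vehicle) and 29.0% (LPA) of Bmp6 UMIs, and more of Bmp5 than meningeal cells did, at 45.1% and 42.4%. The sums below were chosen after the data were seen and hold named nuclei only. Leaving out a type that held most Bmp6 UMIs and had a lower share narrows the difference by construction. The values without meningeal nuclei are therefore a description. With the meningeal nuclei taken out of the named nuclei, Bmp6 stood at 27.7, 31.2 and 29.6 CPM with LPA and 34.95, 24.6 and 29.1 with vehicle. The groups then overlapped, and the log2 fold-change of Bmp6 was -0.01 (95% interval -0.26 to 0.24, adjusted p = 0.98 by edgeR) against -0.90 in all named nuclei, where 5.84% of all genes passed. Bmp5 without meningeal nuclei had a log2 fold-change of -0.18 (95% interval -0.53 to 0.17, adjusted p = 0.56 by edgeR). This left Bmpr1b as the gene of the 10 that passed, at 0.58 (adjusted p = 0.0097 by edgeR), while 4.93% of all genes did. Bmp4 in these nuclei was 25.4 ± 4.60 with LPA and 17.8 ± 1.79 with vehicle, without overlap (25.4% of all genes), at 0.51 (adjusted p = 0.056, edgeR).

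**Figure D2:**
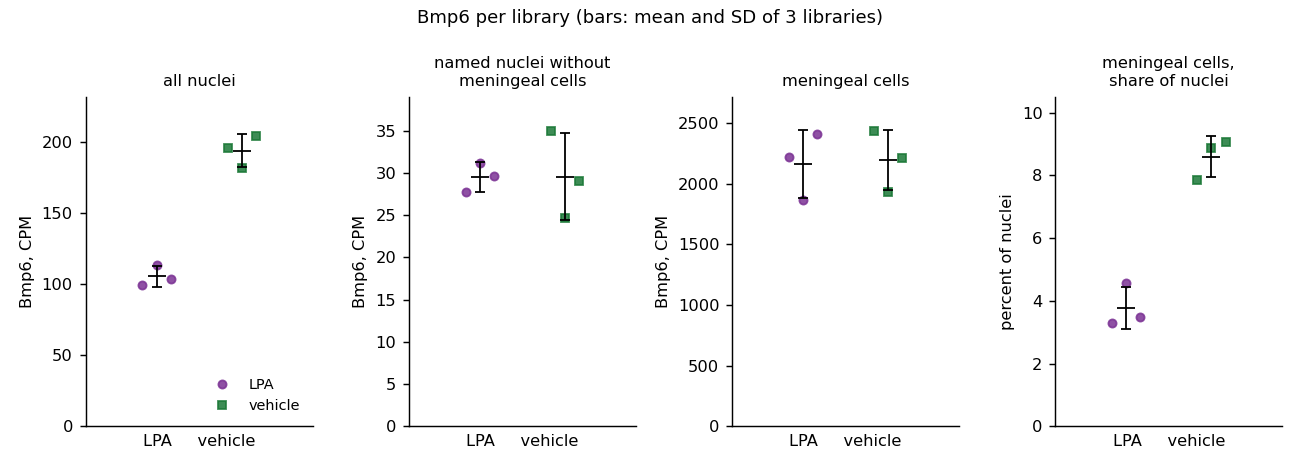
Bmp6 in CPM per library (circles LPA, squares vehicle) in all nuclei, in named nuclei without meningeal cells and in meningeal cells, and the share of meningeal cells in percent of nuclei. Black bars give mean and SD of 3 libraries. All nuclei and the share separate the groups (106 ± 7.36 against 194 ± 11.5 for Bmp6), whereas both other panels overlap.

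Within meningeal cells, the question was whether these nuclei carried more or less of each ligand. Bmp6 did not differ detectably: LPA replicates stood at 2220.4, 1864 and 2411 CPM and vehicle replicates at 2432, 1936 and 2216. The log2 fold-change was -0.01 with a 95% interval from -0.21 to 0.19 (adjusted p = 0.99, edgeR). On average 83.2% of meningeal nuclei in each group had a Bmp6 UMI, and 68.1% (LPA) and 69.4% (vehicle) did when each nucleus was thinned to 1000 UMIs. In myelinating oligodendrocytes, which had 4.53 (LPA) and 6.87 (vehicle) Bmp6 CPM, the unthinned shares were 2.70% and 3.28%, at median depths of 4367 to 6183 UMIs per nucleus against 2357.5 to 3348 in meningeal cells. Bmp5 and Bmp4 in meningeal cells were as close between groups, with log2 fold-changes of 0.00 and 0.05 and adjusted p of 0.997 and 0.94.

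Bmp7 had the lowest p of the 9 genes tested in meningeal cells. LPA replicates held 227, 286 and 273 CPM and vehicle replicates 234, 201 and 205. LPA replicate 1 lay inside the vehicle range, and the log2 fold-change of 0.31 (95% interval 0.11 to 0.52) had an adjusted p of 0.15 in edgeR. Bmpr1b was 41.8 ± 2.82 against 31.0 ± 5.49, without overlap (15.1% of all genes), at 0.42 (adjusted p = 0.37). The summed level of the 12 astrocyte markers in meningeal cells was 2833 to 2971 with LPA and 2859 to 2991 with vehicle, and the groups overlapped in it, with 0 of the markers at 0. Its part in the Bmpr1b levels was not tested. None of the 9 genes passed, and 1.08% of all genes in meningeal cells did. Nog, with 2 LPA and 1 vehicle UMIs, was not tested.

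Meningeal cells were not uniform in these ligands. Over all libraries, the Bmp6 level was 3857 CPM in sub-cluster 2 (Aox3, Col4a6), 2864 in sub-cluster 4 (Aldh1a2, Lepr), 2031 in sub-cluster 6 (Ptgds) and 1791 in sub-cluster 8 (Enpp1, Lama1). It was only 580 in sub-cluster 3 (Slc47a1) and 228 in sub-cluster 17 (Nr1h4, Moxd1). The Bmper level ran the other way, at 542 in sub-cluster 17 and 283 in sub-cluster 3 and from 6.45 to 10.0 in sub-clusters 2, 4, 6 and 8. Bmp5 was highest in sub-cluster 3 (326), and Bmp7 and Chrd in sub-cluster 6 (530 and 56.4). In the 5 sub-clusters with enough nuclei, 33 pairs of a gene and a sub-cluster were tested and 0 passed in edgeR, while 4 had an unadjusted p under 0.05 and 0.0338% to 2.07% of all genes passed (0.531% in sub-cluster 2). Those 4 were Bmp7 (0.48, adjusted p = 0.17) and Bmp6 (0.27, adjusted p = 0.32) in sub-cluster 4, Bmp7 in sub-cluster 2 (0.38, adjusted p = 0.50) and Bmper in sub-cluster 3 (0.46, adjusted p = 0.27). In sub-cluster 4, Bmp6 stood at 3619, 3029 and 3291 with LPA and 3001, 2526 and 2737 with vehicle, and the groups did not overlap (16.1% of all genes).

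In COP, which made up 1.99% ± 0.166 of nuclei with LPA and 1.28% ± 0.224 with vehicle (exact permutation p = 0.1, the smallest possible), the level of Bmp4 did not differ detectably. LPA replicates stood at 385, 403 and 379.5 CPM and vehicle replicates at 382, 301 and 387. The groups overlapped, and vehicle replicate 2 was the low library. The log2 fold-change was 0.15 (95% interval -0.08 to 0.38, adjusted p = 0.89, edgeR), and 0.0782% of all genes passed in COP. The share of COP nuclei with a Bmp4 UMI was 66.8% with LPA and 55.8% with vehicle, at median depths of 3730 to 3945 and 2862.5 to 3384.5 UMIs, and 30.7% and 27.9% after thinning to 1000 UMIs. In astrocytes these unthinned shares were 1.20% and 0.936%. Cluster 45 alone gave 351 ± 24.1 against 345 ± 30.4, and COP together with cluster 45 gave a log2 fold-change of 0.08 (adjusted p = 0.89), with 0.404% of all genes past the limits.

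In newly formed oligodendrocytes as a whole, Bmp4 stood at 121, 134 and 109 with LPA and 88.9, 91.8 and 118 with vehicle. Vehicle replicate 3 overlapped the LPA range, and the log2 fold-change of 0.29 had an adjusted p of 0.36 in edgeR. In OPC, Bmp4 gave 0.50 on 133 LPA and 57 vehicle UMIs (adjusted p = 0.60). Of the other genes in COP, Bmpr1a (-0.01), Bmpr2 (0.06) and Bmper (-0.45, adjusted p = 0.89) were tested and did not pass.

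**Figure D3:**
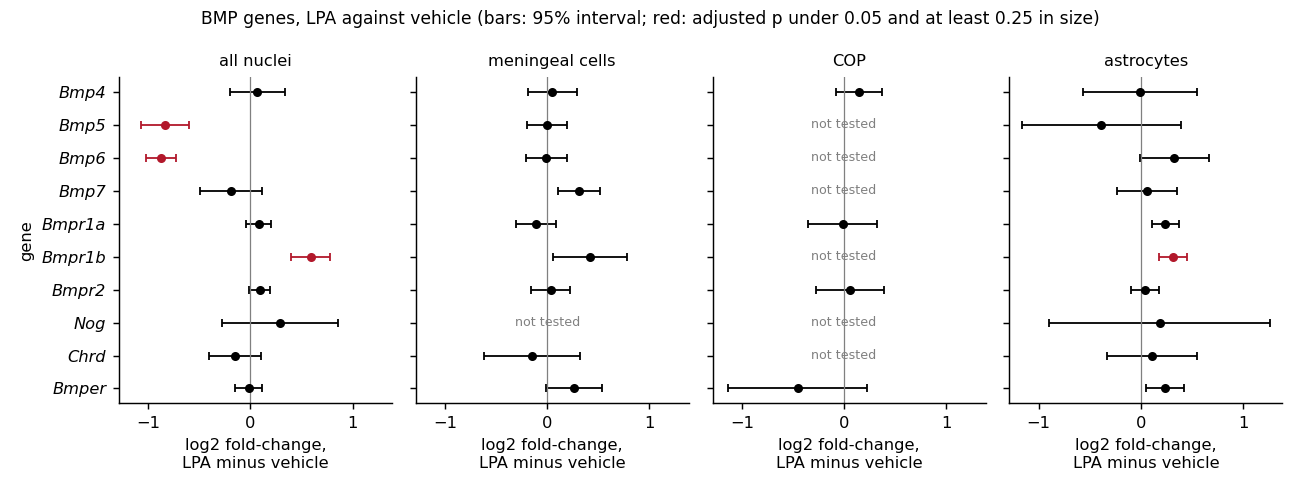
Log2 fold-change of each gene, LPA minus vehicle, in all nuclei, meningeal cells, COP and astrocytes. Points are edgeR estimates, bars 95% intervals, and red marks genes past both limits: Bmp5, Bmp6 and Bmpr1b in all nuclei and Bmpr1b in astrocytes.

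No ligand passed in any of the 14 cell types. In neurons, Bmp6 was 19.6, 16.8 and 20.3 with LPA and 28.2, 26.7 and 26.7 with vehicle, without overlap (13.2% of all genes), at a log2 fold-change of -0.50 (SE 0.092, adjusted p = 0.14, edgeR), and 0.0857% of all genes passed there. The summed level of the 14 meningeal markers in neurons was 117 to 121 with LPA and 141 to 155 with vehicle, 0 markers were at 0, and their part in the Bmp6 difference was not tested. With no filter on low counts, this difference passed (adjusted p = 0.013). In endothelial cells, Bmp6 stood at 6.97, 123 and 58.5 with LPA and 118, 130.4 and 122 with vehicle, a log2 fold-change of -0.91 (adjusted p = 0.69) with LPA replicate 1 far below the rest. The meningeal marker sum in endothelial cells was 123 to 394 with LPA and 449 to 614 with vehicle, and its part was not tested either. Choroid plexus epithelium and ependymal cells, next after meningeal cells in vehicle Bmp6 level, had log2 fold-changes of 0.19 and -0.02. Of all genes, 0.127% and 4.22% passed there.

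Bmpr1b, a receptor gene, was higher with LPA in astrocytes. It encodes a type I receptor on a locus of 332290 bases (chr3:141837136-142169425, reverse strand). In astrocytes it stood at 659, 649.5 and 699 CPM with LPA and 539, 564 and 536 with vehicle, so every LPA library lay above every vehicle library (25.2% of all genes did not overlap). The log2 fold-change was 0.31 (SE 0.064, 95% interval 0.18 to 0.45, adjusted p = 0.0043, edgeR), and 7.52% of all genes passed in astrocytes. It passed under all 13 alternative settings, with adjusted p from 6.2e-05 to 0.035. The share of astrocytes with a Bmpr1b UMI was 78.9% with LPA and 69.1% with vehicle, and 44.5% and 39.2% after thinning to 1000 UMIs, against 7.30% and 3.59% unthinned in myelinating oligodendrocytes.

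Among the 5 astrocyte clusters, cluster 73 had the widest difference in Bmpr1b. It was singled out after its values were seen, so they are given without a test. Cluster 73, led by Thbs4, Gfap and C4b, held 997 nuclei of LPA libraries and 284 of vehicle libraries, 3.78% ± 0.204 against 0.870% ± 0.343 of nuclei. Gfap is the intermediate filament gene that reactive astrocytes raise, and C4b a complement gene. Bmpr1b in cluster 73 stood at 935, 843 and 981 with LPA and 433, 415 and 475 with vehicle. In clusters 69, 70 and 71, which hold most astrocytes, the means were 587 against 545, 644 against 568 and 537 against 467 with LPA and vehicle. In cluster 74 (Myoc, Gfap), Bmpr1b was high in both groups, 887 ± 107 with LPA and 939.6 ± 157 with vehicle. With cluster 73 left out, astrocytes stood at 592, 609 and 624 against 541, 573 and 539. Leaving out a cluster chosen for its wide difference narrows the difference by construction, so these levels are a description too.

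Bmpr1a in astrocytes stood at 267, 292 and 289 with LPA and 236, 244 and 249 with vehicle, at a log2 fold-change of 0.24 (SE 0.063, adjusted p = 0.024, edgeR), just under the limit of 0.25 in size. Without LPA replicate 1 or without vehicle replicate 3 it passed both limits (0.28 and 0.26). In cluster 73 the Bmpr1a means were 388 ± 28.4 and 307 ± 31.2, and in the other astrocytes 257 ± 11.3 and 240.0 ± 5.86, both given without a test. Bmper in astrocytes was 65.9 ± 6.26 against 56.4 ± 2.24 (0.24, adjusted p = 0.12), although in cluster 73 it was lower with LPA, at 130.1, 144 and 142 against 293, 241 and 218.

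Other genes of the pathway also passed in astrocytes. Of the 50 genes on the list of further pathway members, 32 were tested in astrocytes, 3 were higher and 1 was lower, while 7.52% of all genes passed there. Smad6, an inhibitory SMAD that BMP signals induce, stood at 30.3, 27.4 and 26.4 CPM with LPA and 18.8, 16.5 and 20.4 with vehicle (log2 fold-change 0.62, adjusted p = 0.0033, edgeR). Atoh8, a transcription factor gene induced by BMPs in several tissues, stood at 23.1, 19.6 and 24.3 against 15.9, 9.76 and 10.1 (0.97, adjusted p = 0.0010, edgeR). Both passed under all 13 alternative settings. Acvr1, another BMP type I receptor, was 91.3 ± 8.07 against 77.0 ± 3.13 (0.27, adjusted p = 0.048 by edgeR) and was lost under 7 of 13 alternatives. Id2, whose family includes direct BMP targets, went the other way, at 133 ± 17.4 against 174 ± 26.2 (-0.36, adjusted p = 0.030, edgeR). Its call was lost in 4 of 13 alternatives, without LPA replicate 1 or 2 and without vehicle replicate 1 or 2 (adjusted p = 0.054 to 0.14). The median log2 fold-change was 0.02 over the 32 genes and -0.01 over all genes tested.

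In cluster 73, again without a test, Smad6 was 58.2 ± 6.05 with LPA and 21.3 ± 8.65 with vehicle, and Atoh8 66.8 ± 4.10 against 13.9 ± 2.08, the vehicle values resting on 15 and 9 UMIs. Id2 in cluster 73 was higher with LPA (115 ± 16.6 against 84.2 ± 19.7), opposite to astrocytes as a whole. In the other astrocytes, Smad6 was 20.7 ± 1.88 with LPA and 18.4 ± 2.30 with vehicle, and Atoh8 11.6 ± 0.845 and 11.8 ± 3.66. Acvr1 was 87.5 ± 8.54 and 76.1 ± 4.01 there, and Id2 137 ± 17.8 and 178 ± 25.4. The summed level of the 12 ependymal markers in all astrocytes was 110 to 116 with LPA and 48.1 to 59.8 with vehicle, and in cluster 73 it was 276 to 316 and 158 to 304, with 0 markers at 0 in LPA and 3 to 6 in vehicle libraries. Its part in these results was not tested.

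**Figure D4:**
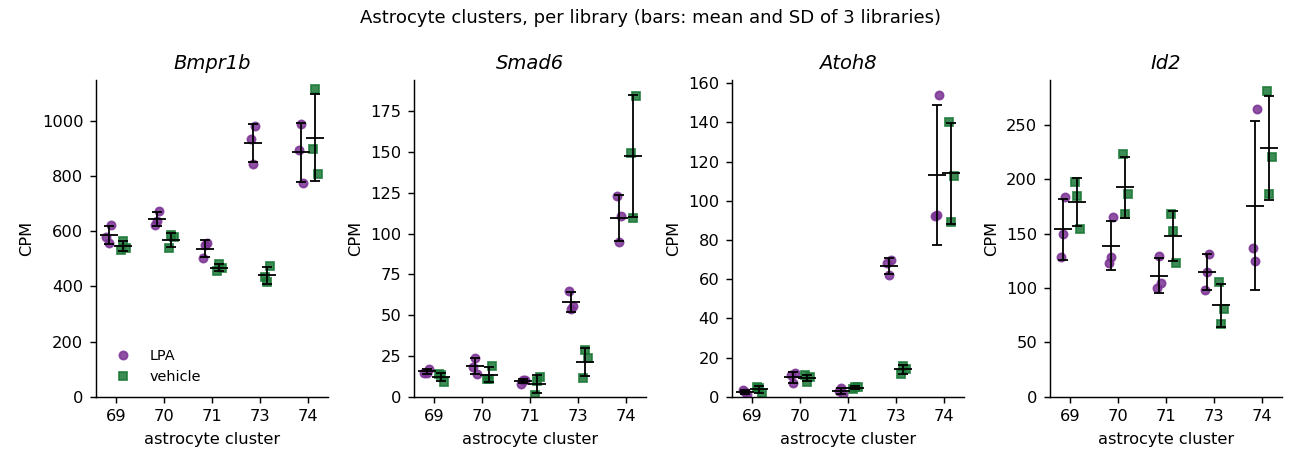
Bmpr1b, Smad6, Atoh8 and Id2 in CPM in the 5 astrocyte clusters, per library (circles LPA, squares vehicle; bars mean and SD of 3 libraries). In cluster 73 the LPA libraries are at 843 to 981 for Bmpr1b and the vehicle libraries at 415 to 475, while cluster 74 is high in both groups.

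The 250 bases before the start sites of Bmpr1b and of 3 pathway genes called in astrocytes are shown for the letters that SMADs are known to bind (RefSeq, GRCm38.p6, in which 8 of the 10 members had an entry). Acvr1, also called there, is not shown. Bmpr1b has 3 start sites in RefSeq, and the window of the most upstream is printed. The windows of start sites 2 and 3, not printed, hold 1 and 0 matches to CAGAC and 0 to GGCGCC. The printed Bmpr1b and Id2 windows lie inside the longer GENCODE genes. Capitals mark GGCGCC, bound by SMAD1 and SMAD5, and CAGAC or its reverse GTCTG, a SMAD motif, searched on both strands. Each window is on the reverse strand, at chr3:141982265-141982514 for Bmpr1b, chr9:64022060-64022309 for Smad6, chr6:72235578-72235827 for Atoh8 and chr12:25096093-25096342 for Id2.
Bmpr1b: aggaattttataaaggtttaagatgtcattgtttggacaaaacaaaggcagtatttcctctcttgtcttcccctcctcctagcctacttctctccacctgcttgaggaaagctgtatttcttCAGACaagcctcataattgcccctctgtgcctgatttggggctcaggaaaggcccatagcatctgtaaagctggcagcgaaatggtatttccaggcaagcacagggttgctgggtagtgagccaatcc
Smad6: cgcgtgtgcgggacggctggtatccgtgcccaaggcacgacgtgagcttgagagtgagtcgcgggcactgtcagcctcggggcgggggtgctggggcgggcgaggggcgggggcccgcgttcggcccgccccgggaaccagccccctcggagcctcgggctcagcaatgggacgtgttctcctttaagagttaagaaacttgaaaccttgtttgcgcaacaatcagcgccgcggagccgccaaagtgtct
Atoh8: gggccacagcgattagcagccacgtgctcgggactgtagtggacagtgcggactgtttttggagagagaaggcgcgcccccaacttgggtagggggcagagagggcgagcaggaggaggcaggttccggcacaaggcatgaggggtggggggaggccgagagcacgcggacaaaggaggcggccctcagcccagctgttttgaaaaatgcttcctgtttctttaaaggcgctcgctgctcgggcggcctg
Id2: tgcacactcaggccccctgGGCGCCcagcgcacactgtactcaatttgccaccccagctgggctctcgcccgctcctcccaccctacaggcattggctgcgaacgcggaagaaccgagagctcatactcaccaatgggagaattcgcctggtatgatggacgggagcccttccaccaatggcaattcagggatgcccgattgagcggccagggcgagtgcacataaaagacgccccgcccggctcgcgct
Bmpr1b holds 1 CAGAC, Id2 holds 1 GGCGCC, and Smad6 and Atoh8 hold neither motif in these windows. Of all 32851 promoters of this length, 42.2% hold CAGAC and 9.59% hold GGCGCC.

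Bmpr1b was also higher in myelinating oligodendrocytes, at a far lower level. LPA replicates stood at 14.8, 13.9 and 12.4 and vehicle replicates at 7.34, 7.39 and 9.21 CPM, without overlap (15.3% of all genes). The log2 fold-change of 0.79 (SE 0.18, adjusted p = 0.049, edgeR) rested on 162 LPA and 133 vehicle UMIs, and 0.624% of all genes passed. The call was lost when any of the 6 libraries was left out (adjusted p = 0.071 to 0.21), with Scrublet doublet calls left out (0.057) and at a Leiden resolution of 2 (0.055), and DESeq2 gave it no adjusted p. The astrocyte marker sum in these nuclei was 320 to 358 with LPA and 292 to 405 with vehicle, and overlapped between groups. Its part in the Bmpr1b difference was not tested.

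Across cell types, Bmpr1b had a log2 fold-change above 0 in all 11 types in which it was tested, from 0.03 in newly formed oligodendrocytes to 0.79, and passed in 2. The groups did not overlap in OPC either, as for 13.7% of all genes (33.6 ± 6.42 against 22.9 ± 2.17, log2 fold-change 0.62, adjusted p = 0.26, edgeR). The 11 types share the same 6 libraries, so their signs are not independent. The part of astrocyte RNA in the other tested types, whose mean vehicle level was at most 52.1 CPM, was not tested. Under alternative settings the sign turned in newly formed oligodendrocytes (4 of 12), pericytes (3 of 13) and ependymal cells (2 of 12). Of 19 differences of the effect between astrocytes or myelinating oligodendrocytes and another type, 0 had an adjusted p under 0.05 in edgeR and 2 had an unadjusted p under 0.05, both for myelinating oligodendrocytes (0.49 against astrocytes and 0.77 against newly formed oligodendrocytes). In these fits 0.0229% to 4.29% of all genes had an adjusted p under 0.05. Against astrocytes, this share was 0.338% with endothelial cells, 1.49% with OPC, 1.64% with myelinating oligodendrocytes, 1.89% with meningeal cells, 2.2% with neurons, 2.83% with ependymal cells and 4.29% with microglia. Myelinating oligodendrocytes gave 3.83% against microglia, 0.438% against newly formed oligodendrocytes and 0.0743% against neurons. In whole libraries, 63.5% of Bmpr1b UMIs with LPA and 57.5% with vehicle came from astrocytes, which made up 19.6% ± 1.54 and 15.4% ± 1.10 of nuclei. Without astrocytes, Bmpr1b in the named nuclei had a log2 fold-change of 0.43 and did not pass (adjusted p = 0.095, edgeR), while 4.38% of all genes did.

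**Figure D5:**
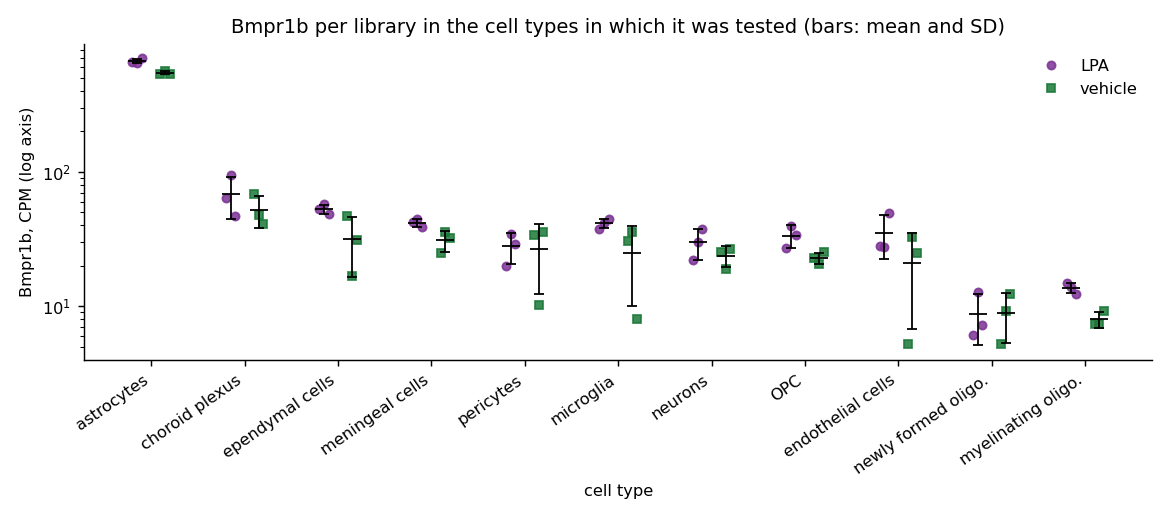
Bmpr1b in CPM (log axis) per library in the 11 cell types in which it was tested, ordered by vehicle level (circles LPA, squares vehicle; bars mean and SD of 3 libraries). Group means in astrocytes are 547 with vehicle and 669 with LPA, and those of the next type are 68.5 and below. The groups separate in astrocytes and myelinating oligodendrocytes among others.

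Bmpr2 and the antagonists changed in no cell type by these limits. Bmpr2 had log2 fold-changes from -0.22 to 0.16 in 14 types, and in endothelial cells, its main site, it was 648 ± 28.9 against 606 ± 34.9 (0.09, 95% interval -0.16 to 0.33). Bmpr1a outside astrocytes ran from -0.30 in neuroblasts, where 0.656% of all genes passed, to 0.18 in pericytes, where 0.226% did. Bmper ran from -0.45 in COP to 0.75 in ependymal cells, the latter on 78 LPA and 22 vehicle UMIs (adjusted p = 0.29, edgeR). Chrd lay between -0.15 and 0.11 in the 4 types tested, and Nog at 0.18 in astrocytes and -0.09 in neurons.

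Over all 14 cell types, 80 of 140 pairs of a gene and a cell type had enough UMIs to be tested, 2 passed and 13 had an unadjusted p under 0.05 in edgeR, while the share of all genes that passed was 0% in macrophages and up to 9.28% in microglia. Of the 700 pairs of the further pathway genes, 277 were tested and 7 passed. Beside the 4 in astrocytes these were Id4 in ependymal cells (-0.69), and the endothelial co-receptor Eng (-0.93) and the inhibitory Smad7 (-0.58) in microglia, named here after their values were seen. Eng and Smad7 were each lost in 6 of 13 alternatives, among them DESeq2 and leaving out vehicle replicate 1 or 2, with adjusted p of up to 0.16 and 0.17. Id4 was lost in 1. These cell types lay partly in different clusters by group, since microglia cluster 24 held 469 LPA nuclei and 1 vehicle nucleus, microglia cluster 25 held 307 and 44, and ependymal clusters 61 and 63 held 106 and 3, and 88 and 7. No ligand, protease or antagonist on the list passed in any cell type, and in meningeal cells 0 of 29 and in COP 0 of 14 genes tested did.

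The genes whose levels over the 14 cell types were most like each member are given as a description, by Pearson's r of mean log2 (CPM + 1) over 14 types among 15142 genes. These types share libraries and differ in depth. For Bmp6 they included Wnt9a (0.93) and Slc13a4 (0.93), and for Bmp5 they were Nrk, Slc6a20a and Cdc42ep5 (0.96 to 0.97). For Bmp4 they were Abce1, Arhgap24 and Nek3 (0.86 to 0.89), and for Bmp7 Adamts5, E330011O21Rik and Efemp1 (0.86 to 0.91). Bmpr1b was most like Ndrg2, Cs and Slc27a1 (0.93 to 0.95), Bmpr1a like Cnnm2, Dennd2a and Uqcc1 (0.80 to 0.82) and Bmpr2 like Stk38, Insr and Cnot6l (0.91 to 0.94). For the antagonists they were Drp2, Tox2 and 2810049E08Rik for Nog (0.88 to 0.92), Adcy1, Mkx and Tcea2 for Chrd (0.88 to 0.90), and 1700024B18Rik, Igdcc4 and Npr2 for Bmper (0.88 to 0.89).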

How the data were processed

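The authors aligned reads with Cell Ranger 4.0.0 to a pre-mRNA version of the mm10 genome and deposited filtered matrices of raw counts (UMIs per gene and nucleus), which are not normalized. Depth was 48852970 to 65688644 UMIs per library in 8639 to 12894 barcodes. Nuclei were dropped below 300 genes, above 1% mitochondrial UMIs or above the upper quartile of UMIs plus 1.5 interquartile ranges. Scrublet marked doublets, which stayed in the main sums. Clusters (scanpy 1.11.5, Leiden resolution 1) were named from fixed markers. Counts were summed per library and cell type and tested with edgeR 4.0.16 (quasi-likelihood, TMM, filterByExpr, Benjamini-Hochberg over all genes of the type), in R 4.3.3, and the code was tested on simulated data. A gene was called where its adjusted p was below 0.05 and its log2 fold-change no smaller than 0.25 either way. Shares of nuclei were compared by exact permutation. Alternatives were DESeq2 1.42.0, no count filter, a replicate block, library sex, no mitochondrial filter, doublets left out, Leiden resolution 2 and each library left out. All 10 members are described, and of the further pathway genes those called in a type where a member was called are named, with exceptions stated. The members and lists were chosen with earlier results of these data known. Of the genes most like each member in level, 1 is not reported here.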

Additional observations from a re-analysis of the deposited data

How the results depend on the processing

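Bmpr1b in astrocytes passed under every alternative listed above. In astrocytes without cluster 73, a sum chosen after the data were seen, it did not pass (log2 fold-change 0.18). Leaving out that cluster narrows the difference by construction. The number of member and cell type pairs called was 2, against 1 with DESeq2 (which gave the other pair no adjusted p), 4 with no filter on low counts, 1 with the replicate block, and 1 to 2 with a library left out (1 without LPA replicate 2, LPA replicate 3, vehicle replicate 1 or vehicle replicate 2). The log2 fold-change of Bmp6 in meningeal cells, which was never called, was -0.01, 0.046 with library sex as covariate, 0.078 at Leiden resolution 2, and -0.094 to 0.090 with a library left out. Bmp4 in COP ran from 0.04 to 0.22 with a library left out. The pathway list had 7 calls, 4 with DESeq2 and 4 to 8 with a library left out (4 without LPA replicate 2 or vehicle replicate 2). Over all alternatives it had 4 to 10. Msx1 in ependymal cells, not called in the main fit, was called under 6 alternatives. In whole libraries, 3 members passed, and 1 did in named nuclei without meningeal cells, an alternative chosen after seeing the data. The cause of these shifts was not tested. Calls seen under 1 alternative alone were Bmp6 in microglia (-3.67) and Bmper in neuroblasts (-1.68) with Scrublet calls left out, Bmp6 in pericytes at resolution 2 (-2.22) and Bmp6 in endothelial cells (-0.88) and neurons (-0.50) with no filter.

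Same-numbered libraries deviated together weakly for numbers 1 and 2 and not for number 3 (correlations 0.107, 0.244 and -0.0327). By sex, numbers 1 and 2 matched and number 3 did not. Of the 6 libraries, 3 correlated best with their own number. The numbers were not taken as pairs because the study does not use them so, and the replicate block was an alternative. With the replicate block, Bmpr1b in astrocytes was 0.31 (adjusted p = 0.010, edgeR), Bmpr1b in myelinating oligodendrocytes 0.79 (adjusted p = 0.12), Bmp6 in meningeal cells -0.01 and Bmp4 in COP 0.15. With 3 libraries a group, and few UMIs of Nog, Chrd and Bmp5 outside their main cell types, smaller differences were not detectable.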

Other observations

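Unnamed clusters beside the meningeal cells also held BMP ligands at high levels over all libraries, among them clusters 7 and 78. Cluster 7 (Gm6260, Cdh1, Bnc2), with 473 nuclei, had 309 CPM of Bmp4, 353 of Bmp5 and 805 of Bmp6. Cluster 78 (Dpp4, Cubn), with 348 nuclei, had 335 of Bmp4, 263 of Bmp5 and 245 of Bmp7. Their shares of nuclei were 0.528% ± 0.0957 with LPA against 1.07% ± 0.134 with vehicle for cluster 7, and 0.440% ± 0.0841 against 0.747% ± 0.148 for cluster 78. Bmp6 was high in further unnamed clusters with meningeal leading genes. Examples are cluster 81 (Slc6a13, Aldh1a2) at 1136, cluster 82 (Slc6a13, Ptgds) at 881 and cluster 75 (Bnc2, Slc47a1) at 592. The meningeal share given earlier leaves out all unnamed nuclei.

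Among neuronal clusters, Bmper reached 384 CPM in cluster 101 (Drd3, 429 nuclei) and 209 in the unnamed cluster 98 (Vip, 565 nuclei), against 58.5 in neurons of vehicle libraries. The unnamed cluster 68, led by Sspo, the gene of SCO-spondin, held 1569 CPM of Bmpr1b in 23 nuclei, of which 52.2% were doublet calls.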
